A study of Mus musculus with 4 samples.

Results

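Genes with a Tex or Spata name followed by a number were described across 4 stages of mouse spermatogenesis. The rule took every gene of the deposited table whose symbol was Tex or Spata with a number, apart from Tex11, Tex12 and Spata22, and it used no measured value. It found 54 genes of 24426 in all, 27 named Tex and 27 named Spata. All 54 reached 0.5 FPKM in at least 1 library, as did 16652 genes of the whole table, and these 16652 are called all genes here. FPKM counts fragments relative to transcript length and to all mapped fragments of a library, so levels can be set side by side between genes per length.

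The cells came from testes of male C57BL/6 mice with no treatment or mutation. Spermatogonia (SG, labelled type A) were pooled from 30 mice aged 7 days. Preleptotene spermatocytes (PlpSC), leptotene/zygotene spermatocytes (L/ZSC) and pachytene spermatocytes (PaSC) came from 5 mice aged 17 days. Cells were sorted by sedimentation at unit gravity, and each stage gave 1 library. No difference between stages therefore has a replicate check, and no p-value or SD can be given. In bulk RNA, fewer cells of a type and less RNA per cell cannot be told apart.

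Tex stands for testis expressed and Spata for spermatogenesis associated. Both names record where a gene was found, and they do not mark a protein family. Some members act in meiotic germ cells, others build the sperm head or tail, and others are used by many cell types. During meiosis, germ cells already transcribe many genes whose proteins are needed only after division, in the haploid spermatids that become sperm.

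The labels of the libraries were not all borne out. For lncRNAs, a fixed factor turned the SG values into those given for PaSC in the lncRNA table published with these data. The PlpSC column equalled its own column there, and the L/ZSC and PaSC columns matched none of that table. Each library is therefore called by its label, and a direction between labels is no more than that. The library labelled PaSC held the mRNAs of later cells: the summed FPKM of 10 spermatid markers was 15.2 in SG, 13.2 in PlpSC, 122 in L/ZSC and 12370.5 in PaSC, with all 10 highest in PaSC and none listed at 0 in any library. The sum of 10 genes listed as pachytene markers was 5807 in SG, 848 in PlpSC, 8580 in L/ZSC and 8950 in PaSC. Ldhc alone gave 3409, 354, 5468 and 5721 FPKM of these in the same order. Of the 10, 7 were highest in PaSC, 2 in L/ZSC and 1, Cldn11, in SG. Cldn11 had 189 FPKM in SG, 93.9 in PlpSC, 58.3 in L/ZSC and 5.15 in PaSC. It fell in the same order as the sum of 8 Sertoli markers, at 1334, 673, 353 and 103 FPKM. Cldn11 is therefore not read as a sign of pachytene cells, although the sum above includes it. The sum of 8 markers of undifferentiated spermatogonia was 92.7 in SG, 76.8 in PlpSC, 95.8 in L/ZSC and 54.3 in PaSC. Most of it was Id4, with 73.1 FPKM in SG, 19.7 in PlpSC, 87.2 in L/ZSC and 47.8 in PaSC, and the other 7 were highest in PlpSC, but with equal sums the list had 3 maxima in SG and 3 in PlpSC. The sum of 8 early meiosis markers was 496 in SG, 1385 in PlpSC, 462 in L/ZSC and 349 in PaSC. Of these 8, 6 were highest in PlpSC (5 with equal sums) and 2 in PaSC. Of 6 markers of differentiating spermatogonia, 5 were highest in PlpSC (3 with equal sums) and 1, Dmrtb1, in PaSC. The library labelled PlpSC was also highest for all 6 macrophage, all 5 interstitial fibroblast and all 4 peritubular myoid markers. In SG, 7 of 8 Sertoli markers were highest. The sum of 6 Leydig markers was 33.7 FPKM in SG, 717 in PlpSC, 49.3 in L/ZSC and 2130.5 in PaSC, of which Insl3 gave 632 in PlpSC and 1834 in PaSC, while Hsd3b1 and Lhcgr were highest in PlpSC. The part of these cells in the results below was not tested. The summed FPKM of all 24426 genes also differed, from 858436 in PaSC to 2571630 in PlpSC, where 68.1% lay in the 10 highest genes.

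Most Tex and Spata genes were highest in the library labelled PaSC. This held for 41 of 54 members (75.9%), against 27.4% of all genes. A maximum over 1.5 times the next library is called clear here, and 31 of the 54 members had a clear maximum in PaSC (57.4%), against 15.7% of all genes. The library labelled PlpSC held the maximum of 10 of the 54 (18.5%), against 41.3% of all genes, and a clear maximum of 6 of the 54 (11.1%), against 25.3% of all genes. The other 3 members were Spata5l1 and Tex9, highest in SG (16.3% of all genes), and Tex19.2, highest in L/ZSC (15.1%). None of these 3 was clear, against 4.26% of all genes for SG and 0.408% for L/ZSC. With every library scaled to the same summed FPKM, 44 members were highest in PaSC, against 42.9% of all genes, and Tex14, Spata5 and Tex9 were among them. There were 3 in PlpSC (Tex13, Tex15 and Tex16), against 11.6% of all genes, and 7 in SG (Tex19.1, Tex19.2, Tex101, Tex30, Spata2, Spata13 and Spata5l1), against 40.2%, and none in L/ZSC, against 5.37%. With the 10 highest genes left out of that sum, 7 members were highest in SG (34.6% of all genes), 7 in PlpSC (28.1%), 0 in L/ZSC (9.45%) and 40 in PaSC (27.8%). Without the library labelled PaSC, 39 of the 54 were highest in L/ZSC, against 33.9% of all genes.

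**Figure D1:**
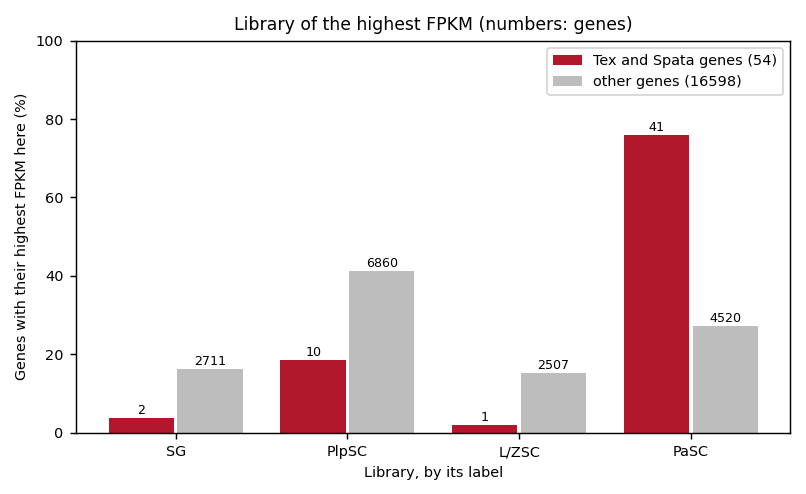
Share of genes (%) with their highest FPKM in each library, for the 54 Tex and Spata genes (red) and the 16598 other genes at 0.5 FPKM or more (grey), with the number of genes over each bar. The library labelled PaSC held 41 of the 54 members.

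The median level of the members was 4.28 FPKM in SG, 3.03 FPKM in PlpSC, 9.52 FPKM in L/ZSC and 59.6 FPKM in PaSC. For the other genes the medians were 7.65, 7.59, 5.13 and 6.12 FPKM in the same order. Members listed at 0 numbered 2 in SG and 2 in PlpSC, and there were none in L/ZSC or PaSC. A maximum of 100 FPKM or more was reached by 19 members (35.2%), against 11.2% of all genes. The members' median lay below that of the other genes in SG and PlpSC and above it in L/ZSC and PaSC.

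**Figure D2:**
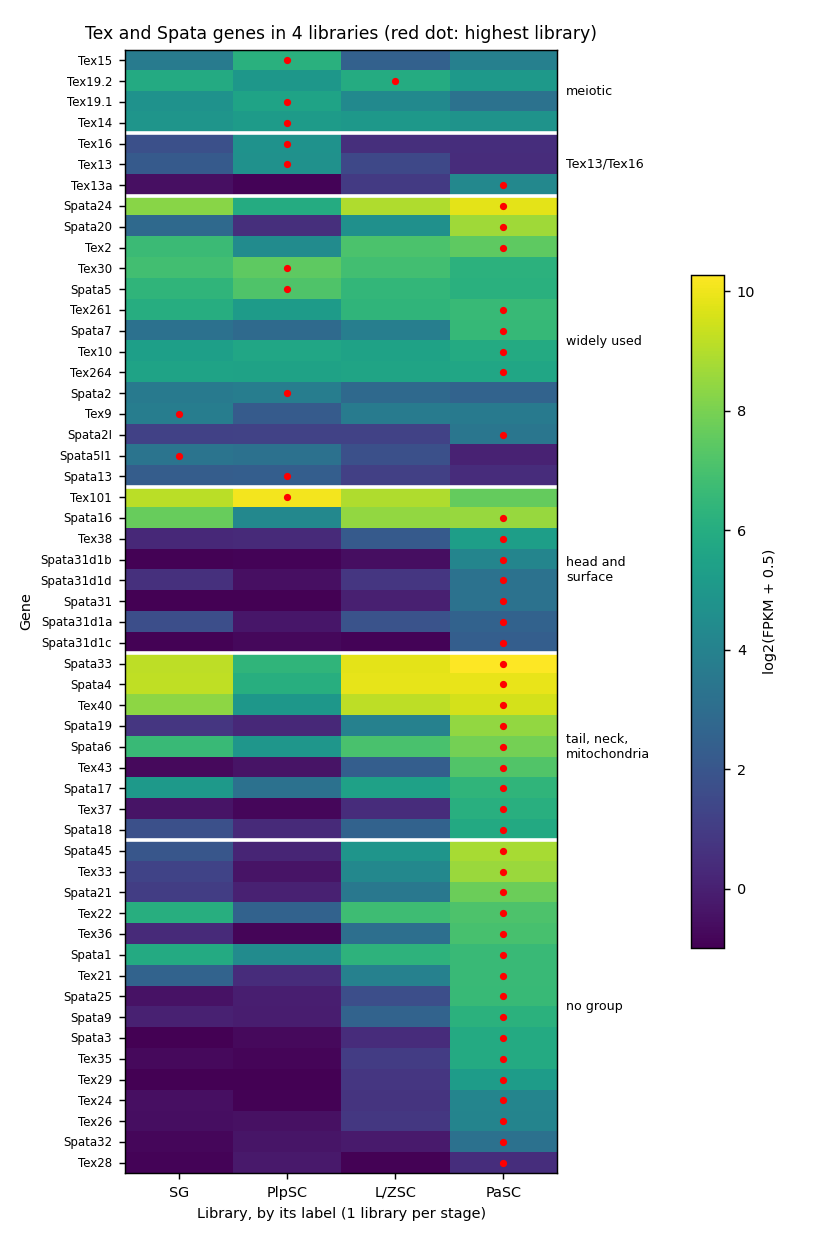
Level of each member, as log2(FPKM + 0.5), in the 4 libraries (columns, 1 library per stage), with genes (rows) ordered by role and then by maximum. The red dot marks the highest library, which is PaSC for 41 of 54 genes and for every gene of the last 2 role blocks.

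Between neighbouring stages a member was called higher or lower where its FPKM differed by over 1.5 times. In PlpSC against SG, 13 members were higher, against 30.1% of all genes, and 27 were lower (50% of members, against 30.9%). In L/ZSC against PlpSC, 36 were higher (66.7%, against 30.7%) and 11 were lower (20.4%, against 45.4%). In PaSC against L/ZSC, 32 were higher (59.3%, against 24.9%) and 7 were lower (against 24.6%). With every library scaled to the same summed FPKM, the split was 5 higher and 39 lower in PlpSC against SG, where 8.62% of all genes were higher and 70.4% lower. It was 43 higher and 4 lower in L/ZSC against PlpSC, where 52.8% of all genes were higher and 23.7% lower. With the 10 highest genes left out of that sum, 8 members were higher and 30 lower in PlpSC against SG (19% and 45.1% of all genes), and 38 were higher and 10 lower in L/ZSC against PlpSC (35.4% and 39.7%). The scaling thus moved all genes and the members the same way, but by different amounts. With equal sums, the 39 of 54 members lower in PlpSC than in SG were a share near the 70.4% of all genes. As deposited, 50% of members stood against 30.9%. In L/ZSC against PlpSC, the 43 of 54 members higher with equal sums remained a larger share than the 52.8% of all genes.

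On the log2(FPKM + 0.5) scale, which understates the change of low genes, the median difference over the members was -0.25 for PlpSC minus SG, 1.55 for L/ZSC minus PlpSC and 1.40 for PaSC minus L/ZSC. Over all genes the medians were 0, -0.29 and -0.10. Scaling to the same sum moved the medians over all genes to -1.04, 0.57 and 0.20, and those over the members to -1.10, 2.10 and 1.82. The members thus lay above all genes at the last 2 steps by a similar margin under either scaling, and near all genes at the first.

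**Figure D3:**
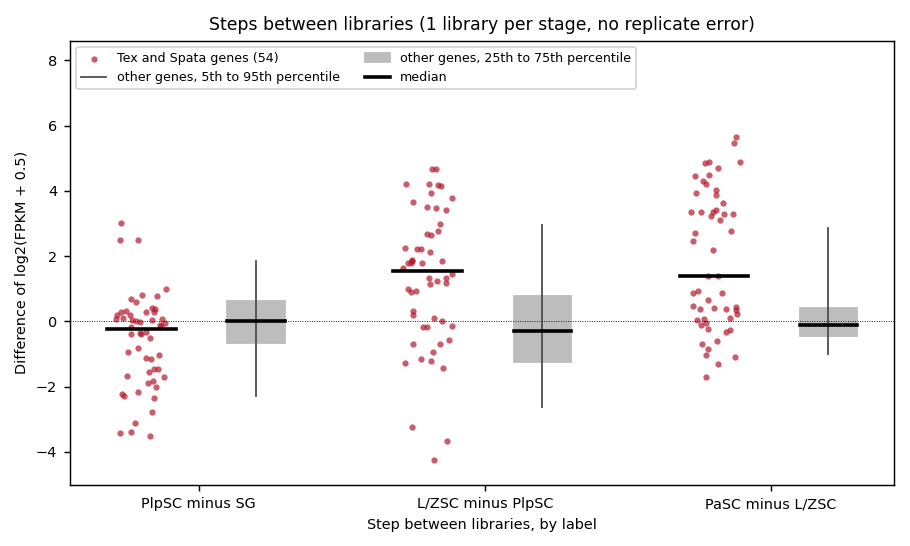
Difference of log2(FPKM + 0.5) between neighbouring libraries for the 54 Tex and Spata genes (red points) and the other genes (grey box from the 25th to the 75th percentile, line from the 5th to the 95th). The black bars are medians, which for the members were -0.25, 1.55 and 1.40 from left to right.

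A common shape was a low value in PlpSC between higher neighbours. In 26 members (48.1%) SG, L/ZSC and PaSC were each over 1.5 times PlpSC, against 22.8% of all genes. These counts used the deposited values and were not repeated with other scalings. With equal sums, 70.4% of all genes were lower in PlpSC than in SG and 52.8% were higher in L/ZSC than in PlpSC. Whether this shape sets the members apart under that scaling was not tested. An increase of any size at all 3 steps was found in 8 members (14.8%), against 2.46% of all genes. These were Spata25, Spata3, Spata32, Spata31d1b, Tex26, Tex38, Tex43 and Spata2l, and some of these steps were small, such as 1.79, 1.84 and 1.86 FPKM for Spata2l from SG to L/ZSC. The ratio of L/ZSC to SG lay between 0.887 and 1.75 for the 14 members of at least 50 FPKM in SG.

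The 4 members that act in meiotic germ cells were highest in PlpSC (3, against 41.3% of all genes) or L/ZSC (1, against 15.1%). None was highest in PaSC, against 27.4% of all genes. Tex15, which is needed for meiotic recombination and for silencing of transposons, was listed at 12.2 FPKM in SG, 70.7 in PlpSC, 5.13 in L/ZSC and 14.4 in PaSC. Its PlpSC value was 4.91 times the next library, and PlpSC stayed its maximum under all 3 other scalings. Tex14, a part of the intercellular bridges that join dividing germ cells, had 29.4 FPKM in SG, 35.7 in PlpSC, 31.5 in L/ZSC and 26.9 in PaSC. It was among the flattest members, with a highest value 1.33 times its lowest, and with equal sums its maximum fell in PaSC.

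Tex19.1 and Tex19.2 are a pair of paralogs that guard germ cells against retrotransposons. They lie on chromosome 11 on opposite strands, at chr11:121146143-121148314 for Tex19.1 and chr11:121116215-121118677 for Tex19.2 (GRCm38), 27.465 kb apart. Tex19.1 had 26.6 FPKM in SG, 46.3 in PlpSC, 19.7 in L/ZSC and 9.07 in PaSC. Tex19.2 had 59.7 FPKM in SG, 31.2 in PlpSC, 60.1 in L/ZSC and 33.4 in PaSC. In PlpSC, then, Tex19.1 was at its highest and Tex19.2 at its lowest, although with equal sums both were highest in SG. Both were lower in PaSC than in L/ZSC, with log2 differences of -1.08 for Tex19.1 and -0.84 for Tex19.2.

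The maxima of genes that work with these proteins did not gather in PaSC, in lists of only 3 to 7 genes. Of 7 genes of the intercellular bridge, 4 were highest in PlpSC (41.3% of all genes) and none in PaSC (27.4% of all genes). The highest of them were Rbm44, with 56.2 FPKM in SG, 19.5 in PlpSC, 78.4 in L/ZSC and 64.1 in PaSC, and Sept7, with 30.3, 59.1, 27.9 and 18.7 FPKM in the same order. Of 5 genes of nuclear piRNA silencing, in which Tex15 takes part, the maxima were spread over all 4 libraries. Mael led with 747 FPKM in SG, 277 in PlpSC, 1013 in L/ZSC and 1079.7 in PaSC. Tdrd9 had 119, 60.7, 129 and 84.6 FPKM. Of the 3 ubiquitin genes around Ubr2, the ligase bound by Tex19.1, 2 were highest in PlpSC. Ube2b had 68.2, 57.9, 68.0 and 56.3 FPKM and Ubr2 had 10.3, 15.4, 3.28 and 1.60 FPKM in that order of stages.

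X-linked members split between PlpSC and PaSC. Tex13 and Tex16, known in mouse as X-linked genes of spermatogonia, were low in all libraries but PlpSC. Tex13, now named Tex13b, had 4.09 FPKM in SG, 25.5 in PlpSC, 2.24 in L/ZSC and 0.844 in PaSC. Tex16 had 2.87 FPKM in SG, 26.6 in PlpSC, 0.929 in L/ZSC and 0.870 in PaSC. Their PlpSC values were 6.25 and 9.25 times the next library, and both stayed highest in PlpSC under each other scaling. Tex13a went the other way, with 0.191 FPKM in SG, 0.0371 in PlpSC, 1.37 in L/ZSC and 18.6 in PaSC. The 4th X-linked member, Tex28, was the lowest of all members by its maximum, with 0.0320 FPKM in SG, 0.356 in PlpSC, 0.0287 in L/ZSC and 0.885 in PaSC. Of 724 X-linked genes among all genes, 63.4% were highest in PlpSC and 23.6% in PaSC, and 78.3% were lower in L/ZSC than in PlpSC.

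Genes of the sperm head and surface numbered 8, and 7 were highest in PaSC, against 27.4% of all genes. The exception was Tex101, a GPI-anchored germ cell surface protein needed for sperm to enter the oviduct. It had 544 FPKM in SG, 1082 in PlpSC, 483 in L/ZSC and 196 in PaSC. Tex101 was the highest of all members in PlpSC, and it was lower in PaSC than in L/ZSC, with a log2 difference of -1.297. Its PlpSC value was higher than SG by 0.99 on that scale, but with equal sums it was lower, at -0.35. Spata16, a Golgi protein of the forming acrosome whose loss causes round-headed sperm in humans, had 201 FPKM in SG, 18.7 in PlpSC, 352 in L/ZSC and 368 in PaSC. Tex38 had 0.741 FPKM in SG, 0.779 in PlpSC, 4.13 in L/ZSC and 39.8 in PaSC.

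The Spata31 genes form a testis family, and all 5 measured members were highest in PaSC while staying at 17.1 FPKM or less. Spata31d1b had 0.0168 FPKM in SG, 0.0398 in PlpSC, 0.177 in L/ZSC and 17.1 in PaSC, the largest ratio of highest to next library among the members at 96.4. Spata31d1a had 2.75 FPKM in SG, 0.314 in PlpSC, 3.25 in L/ZSC and 5.40 in PaSC, a far smaller spread. These neighbours lie on chromosome 13, Spata31d1a at chr13:59700083-59706587 and Spata31d1b at chr13:59712284-59719289 (GRCm38), 5.696 kb apart, and Spata31d1d follows 6.635 kb further on. Spata31d1b shares 24.9% of its 50-base stretches with Spata31d1a, so how reads were divided between the pair is uncertain. Spata31d1d had 0.989, 0.180, 1.22 and 9.06 FPKM from SG to PaSC. Spata31d1c had 0.0245, 0.0989, 0.0325 and 4.66 FPKM in that order. Spata31 had 0.0114 FPKM in SG, was listed at 0 in PlpSC, and had 0.494 in L/ZSC and 8.91 in PaSC. All 3 were thus near or under 1 FPKM in the libraries other than PaSC.

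Of 10 genes that act with Tex101 in sperm migration, 6 were highest in PaSC, 2 in L/ZSC and 2 in PlpSC. The shares of all genes were 27.4%, 15.1% and 41.3% in that order. Adam3, the sperm surface protein that needs Tex101, had 170 FPKM in SG, 14.8 in PlpSC, 291 in L/ZSC and 481 in PaSC. Adam2 had 266 FPKM in SG, 33.9 in PlpSC, 401 in L/ZSC and 354 in PaSC. Both Adam genes were lowest in PlpSC, where Tex101 was highest. Ly6k had 229.5 FPKM in SG, 359 in PlpSC, 255 in L/ZSC and 183 in PaSC, and like Tex101 it was highest in PlpSC and lowest in PaSC. Among 7 genes whose loss gives round-headed sperm, 4 were highest in PaSC. Dpy19l2 had 83.5, 8.29, 122 and 141 FPKM and Zpbp had 60.4, 13.6, 91.5 and 135 FPKM from SG to PaSC. Their order of libraries was that of Spata16.

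All 9 genes of the sperm tail, neck and mitochondria were highest in PaSC, against 27.4% of all genes. In PlpSC 8 of 9 were lower than in SG (30.9% of all genes), and all 9 were higher in L/ZSC than in PlpSC (30.7%). Spata33, which ties the phosphatase calcineurin to sperm mitochondria, reached the highest value of any member and had 574 FPKM in SG, 83.7 in PlpSC, 904 in L/ZSC and 1241 in PaSC. Spata4 had 586 FPKM in SG, 67.7 in PlpSC, 933 in L/ZSC and 968 in PaSC, and 11.1% of its exon bases overlap 5330439A09Rik on the opposite strand. Tex40, now named Catsperz, encodes a subunit of the sperm calcium channel CatSper and had 331 FPKM in SG, 30.8 in PlpSC, 566 in L/ZSC and 750.1 in PaSC. These 3 were high in every library but PlpSC. Of Tex40, 46.5% of the exon bases lie inside Kcnk4 on the same strand, and its reads cannot all be assigned.

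Some others of this group were far lower in the other libraries than in PaSC. Spata19, a mitochondrial protein of the sperm midpiece, had 1.24 FPKM in SG, 0.721 in PlpSC, 15.03 in L/ZSC and 344 in PaSC. Tex37 had 0.261 FPKM in SG, 0.0762 in PlpSC, 0.854 in L/ZSC and 67.8 in PaSC, the largest increase of PaSC over L/ZSC among members of at least 5 FPKM, at 5.66 on the log2 scale. Tex43 reached 149 FPKM in PaSC, against 4.71 in L/ZSC. The maxima, all in PaSC, were 243 FPKM for Spata6, which builds the piece that joins head and tail, 83.7 for Spata17 and 58.0 for Spata18, a protein of mitochondrial quality control. The group thus held genes that were high in the library labelled SG and genes that were not.

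Partner genes showed the same mixture. Of 8 genes of the sperm neck, 7 were highest in PaSC, against 27.4% of all genes. Oaz3 had 1.59 FPKM in SG, 1.86 in PlpSC, 21.8 in L/ZSC and 607 in PaSC, and Odf1 had 1.98, 0.527, 21.8 and 563 FPKM. Of 9 CatSper genes, 6 were highest in PaSC and 3 in L/ZSC (15.1% of all genes). All 9 were higher in L/ZSC than in PlpSC, against 30.7% of all genes. Efcab9 had 1.13, 0.980, 12.5 and 185 FPKM, and Catsper2 had 78.0, 16.6, 122 and 169 FPKM from SG to PaSC. Tex40 was higher than each of the 9 in SG, PlpSC, L/ZSC and PaSC.

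The 14 widely used genes had maxima in more libraries than any other role group, but most were in PaSC. There were 2 maxima in SG, 4 in PlpSC, none in L/ZSC and 8 in PaSC (57.1% of the group). The shares of all genes were 16.3%, 41.3%, 15.1% and 27.4% in that order. The highest was Spata24, with 305 FPKM in SG, 61.4 in PlpSC, 485 in L/ZSC and 889.9 in PaSC. Spata20, a protein with a thioredoxin-like domain, had 6.68 FPKM in SG, 0.920 in PlpSC, 24.6 in L/ZSC and 412 in PaSC. Tex2, a lipid-binding protein of endoplasmic reticulum contact sites, had 101 FPKM in SG, 21.1 in PlpSC, 134 in L/ZSC and 181 in PaSC. Tex30 had 115 FPKM in SG, 175.5 in PlpSC, 117 in L/ZSC and 76.3 in PaSC, with its maximum in SG under equal sums, and 16.4% of its 50-base stretches are shared with Gm29247. The first 3 followed the tail genes and Tex30 did not.

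The flattest members came from this group and from the meiotic germ cell genes, with 2 each. Only 4 members had a highest value at most 2 times their lowest (7.41%), against 20.6% of all genes. Tex264, a receptor for autophagy of the endoplasmic reticulum, had 45.6 FPKM in SG, 44.1 in PlpSC, 47.0 in L/ZSC and 50.4 in PaSC, a ratio of 1.14. Tex10, a subunit of the rixosome that processes ribosomal RNA, had 41.4 FPKM in SG, 50.2 in PlpSC, 45.2 in L/ZSC and 59.5 in PaSC, a ratio of 1.44. The other two were Tex14 and Tex19.2. Maxima of the other widely used genes were 97.7 FPKM for Tex261 and 94.5 for Spata7, both in PaSC, 13.3 for Tex9 in SG and 4.73 for Spata13 in PlpSC. Tex9 overlaps Mns1 on the opposite strand and shares 71.3% of its 50-base stretches with it, and Mns1 had 137 FPKM in SG, 19.6 in PlpSC, 193 in L/ZSC and 202 in PaSC. The Tex9 values are therefore uncertain.

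Paralog pairs of this group differed in their maxima. Spata5 and Spata5l1 are ATPases that act in maturation of the large ribosomal subunit. Spata5 had 82.3 FPKM in SG, 143 in PlpSC, 89.0 in L/ZSC and 70.5 in PaSC. Spata5l1 had 9.77 FPKM in SG, 8.62 in PlpSC, 2.90 in L/ZSC and 0.541 in PaSC. Spata5 was above Spata5l1 in each library, per length, and only Spata5l1 was near the 0.5 FPKM limit in PaSC. Spata2, an adaptor between the deubiquitinase Cyld and linear ubiquitin, had 11.6 FPKM in SG, 13.4 in PlpSC, 6.75 in L/ZSC and 5.52 in PaSC. Its paralog Spata2l had 1.79 FPKM in SG, 1.84 in PlpSC, 1.86 in L/ZSC and 10.4 in PaSC. Spata2 was the higher of this pair in the first 3 libraries and Spata2l in PaSC. Spata2l lies 10.209 kb from Spata33 on chromosome 8, and 11.6% of its exon bases overlap Cdk10 on the opposite strand.

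Over all partner lists, 22 of 74 genes were highest in PlpSC (29.7%), against 41.3% of all genes. PaSC held the maxima of 33 of the 74 (44.6%), against 27.4% of all genes. Among the partners of widely used members, with only 3 to 6 genes a list, PlpSC held the maxima of all 3 ribosome maturation genes, led by Rsl24d1 with 35.0 FPKM in SG, 51.8 in PlpSC, 31.2 in L/ZSC and 29.6 in PaSC, and followed by Cinp with 14.2, 21.9, 14.5 and 9.13 FPKM. It held those of 4 of 6 rixosome genes, of which Senp3 had 59.1, 75.9, 47.9 and 30.4 FPKM and Mdn1 had 39.8, 62.2, 25.8 and 18.3 FPKM. It held those of 3 of 5 genes of linear ubiquitin, although the highest of them, Sharpin, had 34.1, 31.0, 33.7 and 36.6 FPKM, and Rbck1 had 30.7, 27.7, 24.3 and 19.9 FPKM. Of 6 receptors of the Tex264 kind, 3 were highest in PaSC, and the list was led by Rtn3, with 63.3, 59.4, 76.2 and 85.8 FPKM, and Sec62, with 27.0, 38.3, 19.7 and 13.0 FPKM. Of 5 ciliary partners of Spata7, which serves the photoreceptor cilium, 3 were highest in PaSC, led by Rpgrip1 with 32.7, 12.4, 40.0 and 45.9 FPKM and Cep290 with 18.6, 15.1, 18.0 and 22.03 FPKM.

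The 16 members with no role group were all highest in PaSC (27.4% of all genes), 14 of them clearly (15.7%). Spata45 had 3.55 FPKM in SG, 0.634 in PlpSC, 28.6 in L/ZSC and 444 in PaSC. Tex33 had 1.93 FPKM in SG, 0.254 in PlpSC, 18.7 in L/ZSC and 379 in PaSC. Spata21 had 1.56 FPKM in SG, 0.515 in PlpSC, 10.9 in L/ZSC and 212 in PaSC. Spata45, Tex33 and Spata21 were thus far lower in the other libraries than in PaSC. Tex22 had 66.8 FPKM in SG, 5.42 in PlpSC, 108 in L/ZSC and 139.7 in PaSC, and its difference of -3.51 on the log2 scale was the largest drop of PlpSC below SG. Spata3 was listed at 0 in SG and had 0.106 FPKM in PlpSC, 0.850 in L/ZSC and 59.6 in PaSC. Tex35 had 0.109 FPKM in SG, 0.0600 in PlpSC, 1.503 in L/ZSC and 59.0 in PaSC.

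Spata25 had 0.240 FPKM in SG, 0.466 in PlpSC, 2.81 in L/ZSC and 97.7 in PaSC, and 21.5% of its exon bases overlap Zswim1 on the opposite strand. The other maxima, all in PaSC, were 127 FPKM for Tex36, 101 for Spata1, 98.6 for Tex21, 74.1 for Spata9, 36.6 for Tex29, 17.1 for Tex24, which shares 32.7% of its 50-base stretches with other genes, 16.8 for Tex26, 8.599 for Spata32 and 0.885 for Tex28. Tex29 was listed at 0 in both SG and PlpSC.

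A PaSC value over 10 times that of L/ZSC was reached by 22 members (40.7%), against 6.95% of all genes. These were 13 of the 16 with no role group, 4 of the tail, neck and mitochondria group, 3 of the Spata31 genes, Tex13a and Spata20. Just inside this limit lay Spata18, with 58.0 FPKM in PaSC against 5.29 in L/ZSC, and just outside lay Tex38, with 39.8 FPKM in PaSC against 4.13 in L/ZSC. The 10 spermatid markers, whose sum was 12370.5 FPKM in PaSC against 122 in L/ZSC, moved with these members, and their part in the result was not tested. By family, the median PaSC minus L/ZSC difference was 2.48 for Spata genes and 0.43 for Tex genes.

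Gene length and promoters were not used by the rule. The longest annotated transcript of a gene, with protein-coding ones preferred, had a median of 3645.5 nt for the 10 members highest in PlpSC. For the 41 highest in PaSC it was 1552 nt. Exons were counted after merging all transcripts of a gene, with medians of 9 and 6 in the same order. RefSeq promoter windows of GRCm38.p6, running from 250 bases before to 50 bases after a start, were found for 47 members, 56 windows in all. CpG content is given as the ratio of observed CpG to that predicted by base composition. Its median was 0.169 over the 24 windows of members over 10 times higher in PaSC than in L/ZSC, 0.645 over the 19 windows of the other members highest in PaSC, 0.715 over the 10 windows of members highest in PlpSC and 0.384 over all 32851 windows. A ratio of 0.6 or more was found in 2 of the 24, 11 of the 19 and 7 of the 10 windows, against 35.8% of all windows. These counts describe the windows, and several genes have more than 1.

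**Figure D4:**
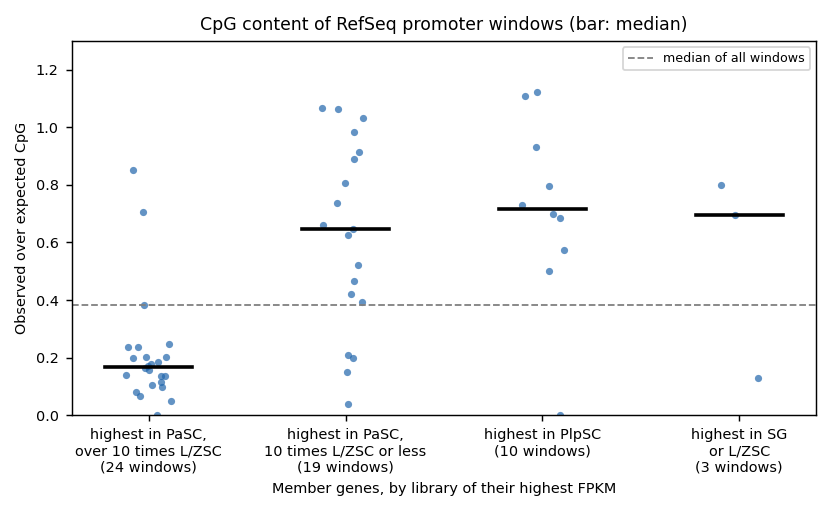
Ratio of observed to predicted CpG in each RefSeq promoter window (points) of the members, grouped by library of the highest FPKM, with the median as a black bar and the median of all 32851 windows as a dashed line. Most of the 24 windows of members over 10 times higher in PaSC than in L/ZSC lie under the dashed line, at a median of 0.169.

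A CpG-poor and a CpG-rich window are shown for Tex37, which was over 10 times higher in PaSC than in L/ZSC, and Tex30, which was highest in PlpSC. Both sequences are the 250 bases before the start, 5′ to 3′ on the gene's strand, with each CpG in capitals. The Tex37 window is chr6:70918923-70919172 and holds 1 CpG, and the Tex30 window is chr1:44102442-44102691 and holds 27, both on the minus strand.
Tex37: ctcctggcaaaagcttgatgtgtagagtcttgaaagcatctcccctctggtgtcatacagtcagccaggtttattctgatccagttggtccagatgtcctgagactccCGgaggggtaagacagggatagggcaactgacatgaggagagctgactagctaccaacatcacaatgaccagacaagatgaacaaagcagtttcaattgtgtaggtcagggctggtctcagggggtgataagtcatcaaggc
Tex30: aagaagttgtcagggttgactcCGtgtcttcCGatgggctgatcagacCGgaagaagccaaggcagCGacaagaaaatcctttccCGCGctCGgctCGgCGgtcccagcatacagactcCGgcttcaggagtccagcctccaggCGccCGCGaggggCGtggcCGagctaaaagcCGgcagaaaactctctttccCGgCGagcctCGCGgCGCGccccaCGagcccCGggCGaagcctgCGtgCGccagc

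Short motifs were searched on both strands of these windows. The core of the X-box, the motif of RFX factors that control genes of cilia, was written GTTGCC or its complement GGCAAC. It was found in 7 of the 24 windows of members over 10 times higher in PaSC than in L/ZSC (29.2%, from 5 genes). Several of these 7 are overlapping windows of Tex35. Of all 56 member windows, 12 held it (21.4%), against 12.5% of all windows. By gene, 5 of the 19 genes of the first set held it, 10 of the 47 members and 3821 of all 27025 genes with a window. The CRE motif TGACGTCA was found in 1.79% of member windows and 1.79% of all windows, and its part TGACGT, which overlaps it, in 12.5% and 7.51%. MYB motifs (the letters TAACGG and also TAACTG, then the forms CAACGG and also CAACTG) were found in 26.8% of member windows and 28.3% of all. The E-box CACGTG was found in 8.93% and 7.15%, and the E2F motif TTCCCGC in 8.93% and 4.60%. A match describes letters only and shows no binding.

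Of the 5 genes with an X-box core among these late members, 4 are shown by 1 match each, with GGCAAC in capitals and up to 20 bases on each side, 5′ to 3′ on the gene's strand. The places are chr15:78395923-78395968 (Tex33), chr1:157108745-157108790 (Tex35), chr7:133602116-133602154 (Tex36) and chr6:70919017-70919062 (Tex37), all on the minus strand.
Tex33: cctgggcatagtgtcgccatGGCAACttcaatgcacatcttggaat
Tex35: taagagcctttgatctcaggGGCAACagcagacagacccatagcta
Tex36: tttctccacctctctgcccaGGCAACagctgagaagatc
Tex37: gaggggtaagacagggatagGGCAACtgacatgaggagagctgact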

How the data were processed

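RNA was measured in 4 libraries, 1 per stage. TopHat, with the mouse build mm10, and Cuffdiff were used by the authors, as their methods and the processing notes of the submission state, and the deposited values are FPKM per gene. Program versions, scaling between libraries and strand settings in counting: not given in the sources used here. Limits of 0.5 FPKM and 1.5 times were taken over from the study. Tables were handled in pandas 2.3.3 and numpy 2.4.6 (Python 3.11.15), with plots from matplotlib 3.10.9. Log2 differences used FPKM + 0.5. A gene listed at 0 was given no fold, but it could be called higher or lower by the 0.5 FPKM limit. With such genes left out, 35 members were higher in L/ZSC than in PlpSC, against 36 with them. Read depth is unknown: among low values, the most common ratio between neighbouring libraries covered 30.5% to 38.2% of values, so the worth of 1 read was not settled. The calculations were tested on simulated data.

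Members, roles, partners and markers were chosen with earlier results of these data known. Values in all 4 libraries are given for the 4 highest members of each role group, the 4 largest increases and 4 largest decreases at each step among members of at least 5 FPKM, the 3 flattest, X-linked members and paralog pairs; for Tex43 and some others the choice was made after values were seen. Partner lists are given by counts and their 2 highest genes. Against RefSeq genes, 52 members matched by symbol and 2 by an older symbol (Tex13b, Catsperz). Overlaps used GENCODE M21 on GRCm38, the assembly mm10 names. Over 10% of exon bases overlapped another gene in 6 members, and over 10% of 50-base stretches were shared with another gene in 6: Spata31d1a, Spata31d1b, Tex24, Tex30, Tex40 and Tex9. Their values are uncertain. The sequence of 1 promoter match is not reported here.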

Additional observations from a re-analysis of the deposited data

How the results depend on the processing

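Alternatives were pseudocounts of 0.1 and 1, filters at 1 and 5 FPKM, a threshold of 2 times, 3 scalings and leaving out a library. With equal sums, 5 members were higher in PlpSC than in SG (13 as deposited), 4 lower in L/ZSC than in PlpSC (11), the median difference of PlpSC minus SG was -1.10, and maxima numbered 7 in SG (2), 3 in PlpSC (10) and 0 in L/ZSC (1). Tex101, PlpSC minus SG, turned to -0.35. Without the 10 highest genes in the sum, 8 were higher in PlpSC than in SG, with 7 maxima in SG and 0 in L/ZSC. Scaling by median ratios left 1 maximum in SG. At 2 times, 8 members were higher in PlpSC than in SG and 4 lower in PaSC than in L/ZSC (7). A pseudocount of 0.1 gave a median of 2.25 for L/ZSC minus PlpSC. Maxima in L/ZSC numbered 2 without the library labelled SG and 39 without that labelled PaSC, an alternative chosen after seeing the data. Of the other summary values, 90 moved by less than the limits used. No paired analysis was possible because each stage had 1 library. Depth and replicate error are unknown, so small ratios cannot be told from noise.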
